A study of Mus musculus with 9 samples.

Results

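Solute carriers are membrane proteins that move amino acids, sugars, ions, metals, nucleosides, vitamins and other small molecules across the cell surface and the membranes of organelles. Their messenger RNA levels were measured in mouse bone marrow-derived macrophages kept with sensory neurons, given transforming growth factor beta (TGF-β) or kept alone. The genes were taken from the symbols beginning with Slc and a digit, 317 of the 24607 genes in the table. The glucose carriers Slc2a1 and Slc2a3 were left out, as were 92 genes that did not reach a value of 10 in at least 3 of the 9 libraries, which leaves 223 genes. Of these 223, 217 are carriers, in 45 families, and 6 only bear the name: 2 pseudogenes, an adaptor (Slc4a1ap), an opposite-strand gene (Slc7a6os) and a pair of scaffold proteins (Slc9a3r1 and Slc9a3r2). The genes were thus chosen by their symbol and by these levels, which are a description and carry no test. The 6 genes that reached 10 in exactly 3 libraries had means over all 9 of 5.43 to 9.77, and the 4 that reached it in exactly 2 and were left out had means of 3.93 to 8.36.

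Macrophages were sequenced in 3 groups of 3 libraries: co-culture with dorsal root ganglion (DRG) neurons, TGF-β at 0.02 ng/ml, and monoculture. The macrophages of all 3 groups had the genotype CX3CR1-gfp/+, with green fluorescent protein in place of 1 copy of the fractalkine receptor gene, and were differentiated with macrophage colony-stimulating factor at 50 ng/ml, with a time label of 5 days. Cells were sorted on the macrophage surface proteins CD11b and CD64 before RNA was taken. The source was 3 mice, and whether each mouse served every condition is not stated, so the p-values measure the spread between these libraries. The co-culture can hold cells of the ganglion other than neurons, and the ages of the animals are not given in the labels.

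Carriers of 1 substrate often work in series: some import at the plasma membrane, others export, and others sit in lysosomes, where macrophages break down what they have engulfed and return amino acids, nucleosides, metals and sugars to the cytosol. Macrophages are known for iron recycling through the exporter ferroportin, for withholding metals from engulfed microbes, and for arginine and cystine uptake that feeds nitric oxide, polyamine and glutathione synthesis. A transcript level is not a transport rate, since many carriers are regulated by trafficking and by partner subunits.

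Depth was 46.8 to 308.8 M reads (M, 1e6) per library, and 1 read was worth 0.346 to 2.27 of the normalized counts used below. By group it was 309, 134 and 166 M in co-culture, 152, 55.9 and 46.8 M with TGF-β and 73.4, 91.9 and 136 M in monoculture. A value of 0 thus rests on different depths in the 3 groups. The 223 genes took 0.731 to 0.941% of the reads. Of them, 193 reached 10 in all 9 libraries and 187 had a mean of at least 50. The lowest and highest library sums of the macrophage markers were 1189810.0 and 1551630.0 normalized counts in co-culture, 1126010.0 and 1309930.0 with TGF-β, and 923872.0 and 1052190.0 in monoculture, with all 7 in the table above 0 in every group. Most of the macrophage sum was Lyz2, with means of 961784 in co-culture, 893724 with TGF-β and 605012 in monoculture. Of the 7, Lyz2 and Mertk rose and Emr1 fell in co-culture against monoculture, and the others were not called. For the 18 fibroblast markers the lowest and highest library sums were 8417 and 12127 in co-culture, 41.3 and 142 with TGF-β, and 55.0 and 133 in monoculture. Of these 18, 15 could be tested and 15 rose in co-culture, but 3 of the 15 passed the level filter outside co-culture, so the rise of the others was built into the filter, and Lum, Mfap5, Pdgfra and Thy1 were at 0 in monoculture. For the 15 glia markers, of which 9 rose and 3 fell in co-culture and 7 passed the filter outside it, they were 22994 and 29261 in co-culture, 57242 and 60948 with TGF-β, and 66513 and 82658 in monoculture, where Apod, Cdh19, Foxd3 and Ngfr were at 0. Most of the glia sum was Pmp22, with 17377 ± 2987 normalized counts in co-culture, 49971 ± 2433 with TGF-β and 64829 ± 7487 in monoculture (SD, n = 3 each). For the 17 sensory neuron markers in the table, of which 5 were tested, 1 rose and 1 fell, they were 611 and 908 in co-culture, 8106 and 10758 with TGF-β, and 8768 and 10076 in monoculture, and Gap43, Isl1, Nefm, Rbfox3, Snap25 and Trpv1 were among those at 0 in monoculture. Most of the neuron sum was Uchl1, with 549, 431 and 562 normalized counts in co-culture, 8853, 10703 and 8049 with TGF-β and 8659, 9986 and 8777 in monoculture. Tubb3, another marker of this list, had 88.0, 87.5 and 102 normalized counts in co-culture, 13.5, 6.56 and 13.6 with TGF-β and 55.2, 8.06 and 17.8 in monoculture. Of the 7 endothelium markers in the table, 4 were tested and 4 passed the filter outside co-culture. Of these, 2 rose and 2 fell in co-culture. Pecam1 had 245, 285 and 366 normalized counts in co-culture against 21.1, 43.7 and 58.1 in monoculture. Cdh5 had 225, 201 and 256 in co-culture against 110, 112 and 82.1 in monoculture. Kdr and Vwf fell, with log2 changes of -0.58 ± 0.13 and -1.04 ± 0.11. The part of these cells' RNA in the results below was not tested, and fewer cells of a type and less RNA per cell cannot be told apart in bulk samples.

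Per kilobase of exon, the highest level belonged in all 3 groups to Slc25a5, the ADP/ATP exchanger of the mitochondrial inner membrane, with a mean of 19035 in co-culture, 17216 with TGF-β and 14704 in monoculture. Slc6a6, the taurine importer, was next at 8561 in co-culture, 10585 with TGF-β and 12204 in monoculture. Slc25a4, another ADP/ATP exchanger, ranked 3 in co-culture and in monoculture. Below these the order differed between groups. Slc11a1 and Slc48a1 ranked 4 and 5 in monoculture against 9 and 10 in co-culture, while Slc7a8 ranked 5 in co-culture and 13 in monoculture. The 10 genes with the most counts held 34.2% of all counts of the 223.

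Co-culture was set against monoculture first. Among amino acid carriers, the cystine exchanger Slc7a11, the arginine importer Slc7a2, the cationic amino acid exporter Slc7a7 and the lysosomal Slc36a1 rose, while the arginine importer Slc7a1, the lysosomal Slc15a4, Slc6a17 and Slc1a4 fell. Among metal carriers, the iron exporter Slc40a1 and the zinc carriers Slc39a8 and Slc39a14 rose, while the phagosomal metal carrier Slc11a1, the heme carrier Slc48a1 and the zinc carrier Slc30a4 fell. A gene is said to rise or fall at an adjusted p under 0.05, from a linear model (limma) on log2 of the normalized count plus 10, with Benjamini-Hochberg adjustment over all 16328 genes tested. Every change below is a log2 change ± the standard error of that model. On this scale 40 of the 223 genes rose, 59 fell and 124 were not called, against 30.8% of all tested genes called, 15.9% higher and 15.0% lower. The 2-fold mark (a log2 change of 1) was passed by 14 that rose and 23 that fell. The median log2 change was -0.07 over the 223 genes and 0.03 over all tested genes. Groups did not overlap for 131 of the 223 genes, against 45.0% of all tested genes.

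The count was repeated among genes with a mean of at least 50. There 35 of 187 rose and 52 fell, against 34.3% of 12594 genes called. Of the 223 genes, 6 would not have passed the level filter on the TGF-β and monoculture libraries alone (Slc3a1, Slc7a3, Slc4a8, Slc35f1, Slc16a4 and Slc22a17). Slc35f1 and Slc16a4 reached 10 in co-culture libraries only, so a higher level there was built into their choice, while Slc7a3 and Slc4a8 reached 10 in 1 library of each group. Slc22a17 reached 10 in co-culture and TGF-β libraries but in no monoculture library, so its rise over monoculture was also favored by the filter. Without those 6, 38 rose and 59 fell.

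The genes were sorted by the substrate class of their family. Of 34 carriers of amino acids and peptides, 10 rose and 11 fell in co-culture, and of 60 carriers of ions and metals, 11 rose and 20 fell. The 43 mitochondrial carriers of the Slc25 family had 5 that rose and 8 that fell. The class of nucleotide sugars is the whole Slc35 family, placed there by family and not by the substrate of each gene. Among its 22 genes 4 rose and 3 fell. Among 13 carriers of organic anions 2 rose and 4 fell, and among 13 of sugars 2 rose and 2 fell. Of the 13 carriers of vitamins, choline and lipids 1 rose and 4 fell, of the 4 nucleoside carriers 1 rose and 1 fell, and of the other 15 carriers 2 rose and 6 fell. Calls in both directions were thus present in every class of carriers. Over all tested genes 30.8% were called, 15.9% higher and 15.0% lower.

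**Figure D1:**
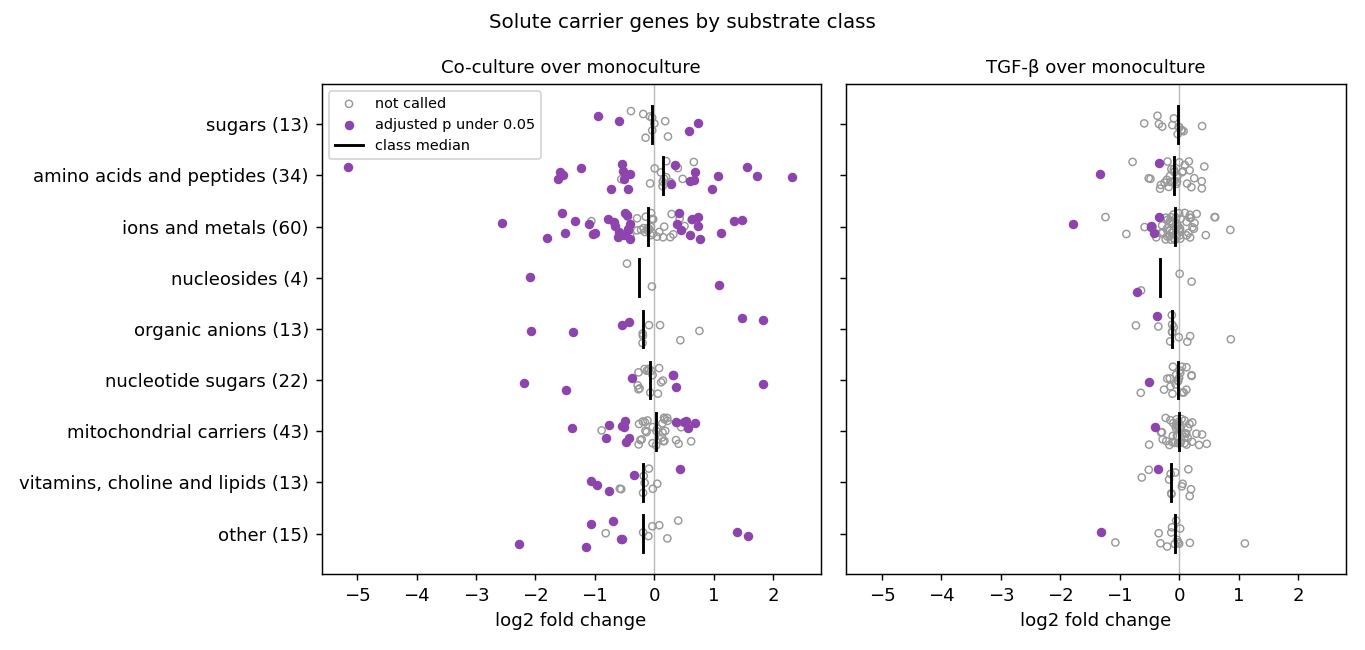
Log2 change of each of the 217 carriers (points) by substrate class, for co-culture over monoculture and for TGF-β over monoculture. Filled points are genes called at an adjusted p under 0.05, and the 6 genes that are not carriers are not drawn. Co-culture calls lie on both sides of 0 in every class of carriers, and the 13 calls with TGF-β all lie below 0.

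The cystine and cationic amino acid carriers of the Slc7 family are given first. Slc7a11, the light chain of the exchanger that brings in cystine and sends out glutamate, had 1005, 1292 and 781 normalized counts in co-culture, 208, 205 and 141 with TGF-β and 213, 181 and 187 in monoculture. All 3 co-culture libraries stood above the other 6, and the TGF-β and monoculture libraries overlapped. The log2 change was 2.32 ± 0.21 (adjusted p = 9.78e-07) for co-culture over monoculture and -0.08 ± 0.21 (adjusted p = 0.920) for TGF-β over monoculture. The gene lies at chromosome 3, 49892526 to 50443614, minus strand of mm10.

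Slc7a2, the arginine and lysine importer CAT2, had 1441, 1759 and 1149 normalized counts in co-culture, 529.8, 465 and 482 with TGF-β and 482, 435 and 366 in monoculture. Every co-culture library was above the other 6. Its log2 change was 1.73 ± 0.16 (adjusted p = 1.49e-06) over monoculture and 1.52 ± 0.16 (adjusted p = 8.28e-06) over TGF-β. Slc7a7, which exports cationic amino acids in exchange for neutral ones, had 3483, 3618 and 3165 normalized counts in co-culture, 1513, 1626 and 1402 with TGF-β and 1252, 1277 and 969 in monoculture. The 3 groups did not overlap, with TGF-β between the other two, and the log2 change was 1.55 ± 0.12 (adjusted p = 1.62e-07) in co-culture against 0.38 ± 0.12 (adjusted p = 0.112) with TGF-β. Slc7a1, the housekeeping arginine importer CAT1, went the other way, with 4389, 6124 and 4504 normalized counts in co-culture, 6230.2, 6737 and 6983 with TGF-β and 8489, 8705 and 7533 in monoculture. It fell in co-culture, with a log2 change of -0.73 ± 0.12 (adjusted p = 2.14e-04), and its call against TGF-β was lost without co-culture 1 or co-culture 3 (adjusted p up to 0.0837).

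The 3 exchangers Slc7a11, Slc7a7 and Slc7a8 share a heavy chain, Slc3a2 (CD98), which carries them to the surface. Slc3a2 averaged 19859 ± 725 normalized counts in co-culture, 17087 ± 1375 with TGF-β and 15559 ± 933 in monoculture (SD, n = 3 each), a log2 change of 0.35 ± 0.08 (adjusted p = 0.00489) in co-culture. Its co-culture libraries were above the 6 others, yet the test against TGF-β was not passed (0.22, adjusted p = 0.0726). Slc7a8, an importer of large neutral amino acids, rose, with 28898 ± 1045 normalized counts in co-culture against 18078 ± 2469 in monoculture and a log2 change of 0.69 ± 0.10 (adjusted p = 8.39e-05). Slc7a5, the other carrier of large neutral amino acids that uses this heavy chain, changed by -0.41 ± 0.13 (adjusted p = 0.0328). Its groups overlapped, and the call was lost without monoculture 1, monoculture 2, co-culture 1 or co-culture 3 (adjusted p up to 0.142).

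Promoter sequence was set beside these carriers because Slc7a11 is a textbook target of the amino acid response factor ATF4, whose composite element reads TGATGNAA. That choice rested on 1 gene, and the activity of ATF4 was not tested. Other genes of amino acid supply fell in co-culture, such as Asns, Slc1a4 and Slc7a1, with log2 changes of -2.17, -1.53 and -0.73. Of the 34 carriers of amino acids and peptides, 10 rose and 11 fell, against 15.9% higher and 15.0% lower over all tested genes. Of the 223 genes, 166 matched a RefSeq promoter of build GRCm38.p6, and the 250 bases upstream of the start were searched on both strands, counting a gene when any of its windows held the motif. The motifs were chosen after the changes were known. TGATGNAA was in the promoters of 3 of 31 genes that rose (9.68%), Slc7a11, Slc7a7 and Slc9a9, and of 0 of 46 that fell, against 2.41% of the 166 and 3.91% of 27025 genes. The lysosomal E-box CACGTG was in 22.6% of those that rose and 13% of those that fell, against 15.1% of the 166 and 6.86% of all genes. The antioxidant element TGACNNNGC was in 12.9% of those that rose, 17.4% of those that fell and 11.5% of all genes. For the metal element, TGCGCNC was in 16.1% of those that rose, 19.6% of those that fell and 14% of all genes, and TGCACNC in 9.68%, 17.4% and 11.8%. The SMAD box CAGACA was in 9.68% of those that rose, 15.2% of those that fell and 19.3% of all genes. Each motif was searched separately, so matches of different motifs may overlap, and a match describes letters only. The stretches below carry the matches of leading genes that rose, with the motif in capitals and TTGCATCA being TGATGNAA on the other strand. Slc7a11 is shown because it held 2 matches, 1 on each strand, at chr3:50443624-50443743 (minus strand, 130 to 11 bases upstream). Slc7a7 is at chr14:54418045-54418124 (minus strand, from 180 bases upstream), and Slc36a1, which held CACGTG, is at chr11:55204250-55204329 (plus strand, 90 to 11 bases upstream).
Slc7a11: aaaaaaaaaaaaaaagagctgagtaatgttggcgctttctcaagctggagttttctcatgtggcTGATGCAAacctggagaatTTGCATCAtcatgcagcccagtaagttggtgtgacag
Slc7a7: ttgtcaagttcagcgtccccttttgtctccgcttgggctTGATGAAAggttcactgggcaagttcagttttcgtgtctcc
Slc36a1: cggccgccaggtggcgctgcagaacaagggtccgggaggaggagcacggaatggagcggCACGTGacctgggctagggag

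Lysosomal carriers of amino acids and peptides followed. Slc36a1, a proton-coupled exporter of small amino acids in the lysosomal membrane, had 8217, 7158 and 6014 normalized counts in co-culture, 3778, 3868 and 4470.0 with TGF-β and 3202, 3602 and 3336 in monoculture. The co-culture libraries were above all others, and the log2 change was 1.06 ± 0.11 (adjusted p = 4.21e-06) over monoculture and 0.81 ± 0.11 (adjusted p = 8.03e-05) over TGF-β. Slc38a7, a lysosomal exporter of glutamine and asparagine, rose by a log2 change of 0.60 ± 0.10 (adjusted p = 2.36e-04), with 5665 ± 405 normalized counts in co-culture, 3905 ± 124 with TGF-β and 3751 ± 470.3 in monoculture (SD, n = 3 each). Slc15a3 and Slc15a4 carry histidine and short peptides out of endolysosomes and went in opposite directions. Slc15a3 had 9905, 10830.2 and 10941 normalized counts in co-culture, 5195, 6044 and 5543 with TGF-β and 6555, 7357 and 6008 in monoculture, a log2 change of 0.67 ± 0.09 (adjusted p = 5.67e-05). Slc15a4 fell, with a log2 change of -0.52 ± 0.09 in co-culture (adjusted p = 4.14e-04), with 3313 ± 331 normalized counts in co-culture against 4749 ± 208 in monoculture. Slc38a9, the lysosomal arginine sensor of the growth kinase mTORC1, was not called against monoculture (0.20, adjusted p = 0.136).

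The other amino acid carriers are importers of neutral amino acids for the most part. Slc6a17, which loads neutral amino acids into synaptic vesicles in brain, had the largest fall, with 4.50, 10.2 and 11.3 normalized counts in co-culture, 211, 310.3 and 243 with TGF-β and 533, 741 and 692 in monoculture. The 3 groups did not overlap. The log2 change was -5.16 ± 0.24 (adjusted p = 1.91e-09) in co-culture and -1.33 ± 0.24 (adjusted p = 0.00870) with TGF-β, whose call was lost without monoculture 2 or TGF-β 1 (adjusted p up to 0.0673). Slc1a4, a carrier of serine and alanine, had 85.6, 145 and 82.4 normalized counts in co-culture, 217, 232 and 209 with TGF-β and 356, 334 and 251 in monoculture, a log2 change of -1.53 ± 0.23 (adjusted p = 1.41e-04) in co-culture. Its relative Slc1a5, the glutamine carrier ASCT2, fell, with a log2 change of -0.43 ± 0.10 (adjusted p = 0.00547) in co-culture. Slc38a2, a starvation-induced importer of small neutral amino acids, averaged 10155 ± 753 normalized counts in co-culture, 11666 ± 302 with TGF-β and 14717 ± 569.7 in monoculture (SD, n = 3 each). It fell, with a log2 change of -0.54 ± 0.08 in co-culture (adjusted p = 1.04e-04). Slc6a6, the taurine importer, fell, with a log2 change of -0.51 ± 0.10 (adjusted p = 0.00134). All 5 Slc6 genes that passed the level filter fell in co-culture, against 15.0% of all tested genes: Slc6a6, Slc6a17, the glycine carrier Slc6a9, the neutral amino acid carrier Slc6a19 and the creatine carrier Slc6a8. Slc6a9 was low, with 23.2, 26.6 and 23.9 normalized counts in co-culture against 92.6, 58.7 and 65.9 in monoculture. Slc6a19 was low as well, with 6.58, 11.7 and 14.6 in co-culture against 43.8, 51.8 and 62.8 in monoculture. Slc38a6 rose, with 2644 ± 315 normalized counts in co-culture against 1339 ± 91.3 in monoculture and a log2 change of 0.97 ± 0.11 (adjusted p = 8.19e-06). Slc1a3, the glutamate importer typical of astrocytes, had 12.8, 26.6 and 19.3 normalized counts in co-culture, 5.26, 19.7 and 6.82 with TGF-β and 13.0, 26.5 and 0.775 in monoculture, and was called in no comparison.

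**Figure D2:**
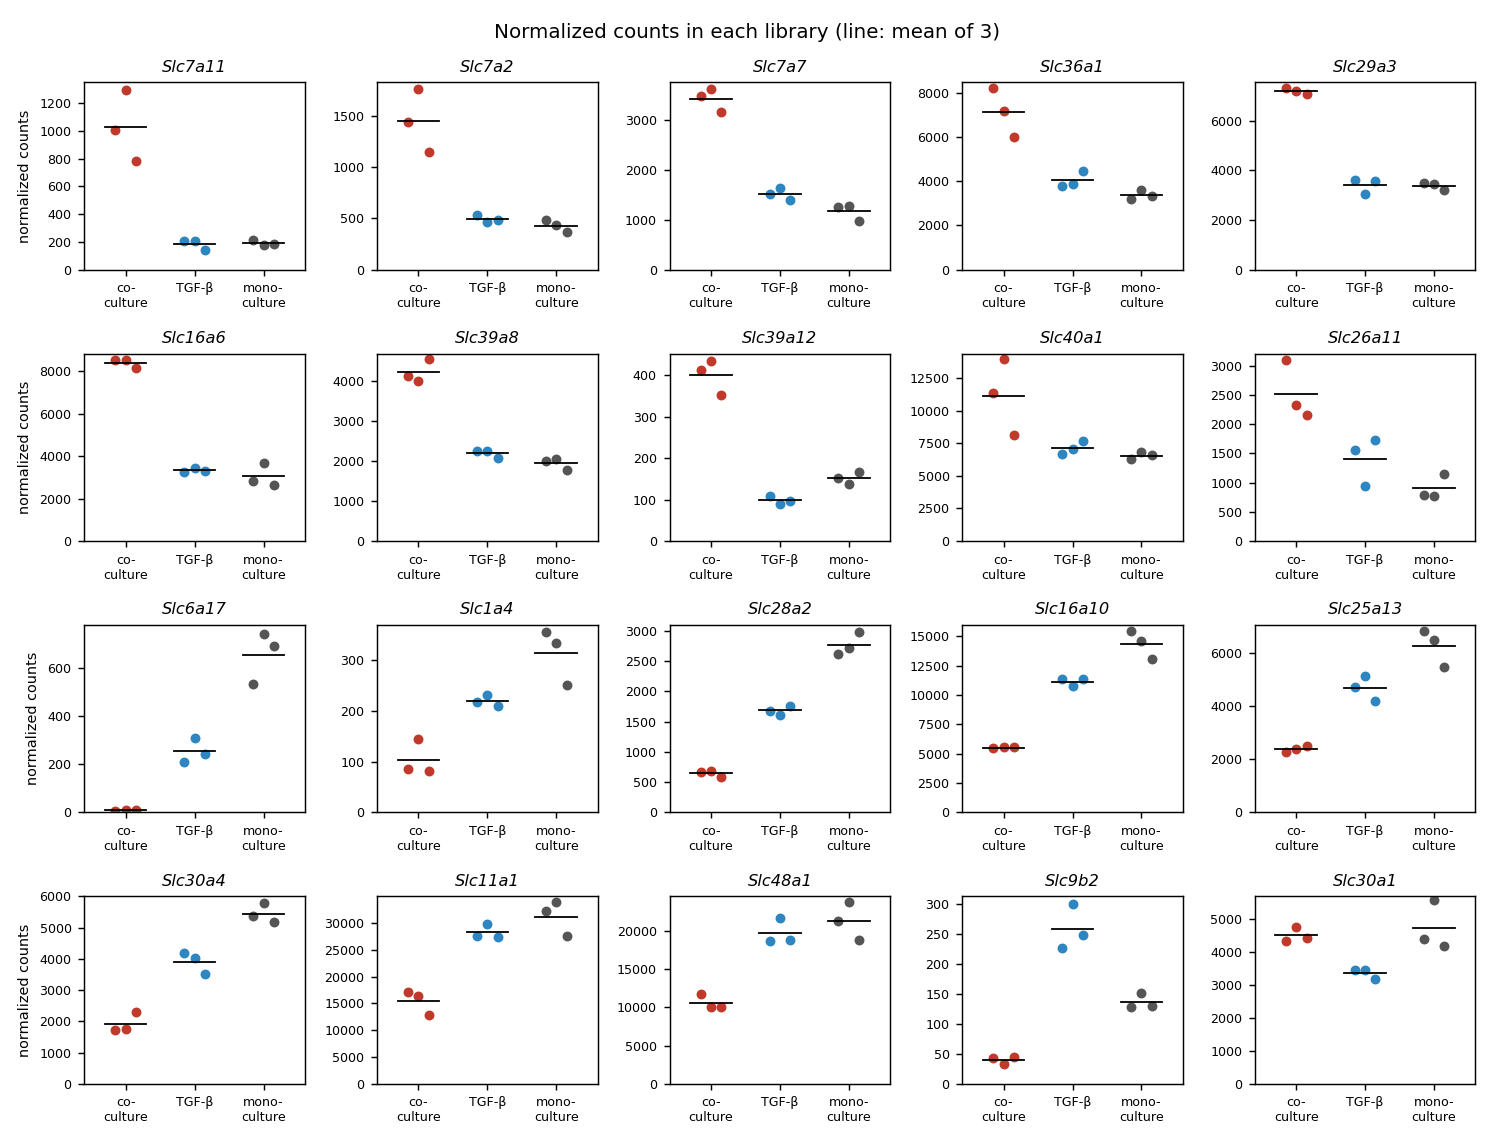
Normalized counts of 20 carriers in each of the 9 libraries (points) with the group mean (bar), each panel on its own linear axis from 0, groups in the order co-culture, TGF-β, monoculture. For Slc7a11, Slc7a2 and Slc36a1 the 3 co-culture points are above all others, and for Slc6a17 the 3 groups are apart with monoculture highest.

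Iron and heme carriers moved in both directions. Slc40a1, ferroportin, the only known iron exporter of the cell surface, had 11364, 14008 and 8141 normalized counts in co-culture, 6682, 7099.7 and 7706 with TGF-β and 6284, 6823 and 6583 in monoculture. The co-culture libraries were above the other 6, with co-culture 2 highest, and the log2 change was 0.73 ± 0.15 (adjusted p = 0.00325) over monoculture and 0.61 ± 0.15 (adjusted p = 0.0127) over TGF-β. The call over TGF-β was lost without TGF-β 1 (adjusted p = 0.0525). Slc11a1, Nramp1, which pumps iron and manganese out of phagosomes, had 17039.7, 16348 and 12764 normalized counts in co-culture, 27487, 29789 and 27386 with TGF-β and 32196, 33886 and 27489 in monoculture. Each co-culture library was below every other library, and the log2 change was -1.02 ± 0.11 (adjusted p = 7.33e-06). Slc48a1, which brings heme out of the phagolysosome, had 11729, 10032 and 9989 normalized counts in co-culture, 18621, 21736 and 18739 with TGF-β and 21235, 23807 and 18753 in monoculture, with co-culture again below all others. Its log2 change was -0.90 ± 0.10 (adjusted p = 1.88e-05) over TGF-β, and the adjusted p over monoculture was 4.21e-06. Slc11a2, DMT1, which imports iron at the endosome, fell, with a log2 change of -0.41 ± 0.10 (adjusted p = 0.00761), with 2249 ± 267 normalized counts in co-culture against 2971 ± 157 in monoculture. The call of Slc11a2 against TGF-β was lost without co-culture 2, co-culture 3, TGF-β 2 or TGF-β 3 (adjusted p up to 0.144).

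Zinc carriers form the families Slc39, which moves zinc into the cytosol, and Slc30, which moves it out of the cytosol. Of 13 Slc39 genes 3 rose and 4 fell, and of 6 Slc30 genes 2 rose and 1 fell in co-culture. Over all tested genes 15.9% were higher and 15.0% lower, and families of this size are too small to be set against that share. Slc39a8, an importer of zinc and manganese, had 4142, 4013 and 4549 normalized counts in co-culture, 2244, 2253 and 2077 with TGF-β and 1992, 2042 and 1787 in monoculture, a log2 change of 1.12 ± 0.09 (adjusted p = 3.12e-07) with the 3 groups apart. Slc39a14, an importer of zinc, manganese and iron, rose by 0.78 ± 0.13 (adjusted p = 2.91e-04), with 6279.6 ± 739 normalized counts in co-culture, 3547 ± 495 with TGF-β and 3666 ± 547 in monoculture (SD, n = 3 each). Slc39a12, a zinc importer best known from brain, had 413, 434 and 353 normalized counts in co-culture, 108, 89.6 and 97.7 with TGF-β and 153, 138 and 167 in monoculture. It was highest in co-culture and lowest with TGF-β, with log2 changes of 1.33 ± 0.19 (adjusted p = 7.83e-05) in co-culture and -0.58 ± 0.19 (adjusted p = 0.139) with TGF-β, and 1.92 ± 0.19 (adjusted p = 4.08e-06) between co-culture and TGF-β. Slc39a6, Slc39a3, Slc39a11 and Slc39a10, all zinc importers, fell, with log2 changes of -0.65 ± 0.10, -0.51 ± 0.12, -0.46 ± 0.11 and -0.41 ± 0.09.

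Among exporters, Slc30a4, which loads zinc into vesicles, had 1726, 1762 and 2299.6 normalized counts in co-culture, 4182, 4045 and 3522 with TGF-β and 5365, 5797 and 5191 in monoculture. The 3 groups did not overlap, and the log2 change was -1.50 ± 0.11 (adjusted p = 1.63e-07) in co-culture and -0.48 ± 0.11 (adjusted p = 0.0406) with TGF-β. Slc30a1, the zinc exporter of the cell surface, had 4323, 4745 and 4419.8 normalized counts in co-culture, 3440.5, 3439 and 3188 with TGF-β and 4392, 5561 and 4183 in monoculture. It was lower with TGF-β than in the other groups, with a log2 change of -0.06 ± 0.10 (adjusted p = 0.724) in co-culture and -0.48 ± 0.10 (adjusted p = 0.0235) with TGF-β, and it is the only 1 of the 13 genes that fell with TGF-β that was not called in co-culture against monoculture. Slc30a7 and Slc30a9 rose in co-culture by 0.38 ± 0.07 and 0.42 ± 0.08. The copper importer Slc31a1 rose as well, with 8886 ± 383 normalized counts in co-culture against 5707 ± 459.7 in monoculture and a log2 change of 0.64 ± 0.08 (adjusted p = 3.75e-05).

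Carriers of sodium, protons, calcium, sulfate, phosphate and chloride completed the class. Slc26a11, a sulfate and chloride carrier, had 3086, 2317 and 2153 normalized counts in co-culture, 1553, 933 and 1723 with TGF-β and 783, 777 and 1149 in monoculture, a log2 change of 1.48 ± 0.24 (adjusted p = 9.89e-04) in co-culture. The TGF-β and monoculture libraries overlapped, and the call of co-culture against TGF-β was lost without co-culture 1 or co-culture 2 (adjusted p up to 0.0858). Slc8a1, a sodium-calcium exchanger, rose by 0.74 ± 0.10 (adjusted p = 4.60e-05), while Slc24a3, which also exchanges potassium, fell, with a log2 change of -1.10 ± 0.13 (adjusted p = 1.72e-05). Slc9a9, a sodium-proton exchanger of endosomes, rose by 0.60 ± 0.12 (adjusted p = 0.00121), and its call against TGF-β was lost without co-culture 1, TGF-β 2 or TGF-β 3 (adjusted p up to 0.155). Slc9b2, a sodium-proton antiporter abundant in osteoclasts, had 43.3, 32.8 and 45.2 normalized counts in co-culture, 226, 299 and 248 with TGF-β and 128, 152 and 130.2 in monoculture. The 3 groups were apart with TGF-β highest, at -1.55 ± 0.22 (adjusted p = 9.53e-05) for co-culture over monoculture and 0.86 ± 0.22 (adjusted p = 0.0612) for TGF-β over monoculture. Slc20a1, the phosphate importer, averaged 8389 ± 443 normalized counts in co-culture, 10606 ± 673 with TGF-β and 13406 ± 402 in monoculture (SD, n = 3 each), and fell, with a log2 change of -0.68 ± 0.08 in co-culture (adjusted p = 1.21e-05). Slc12a4, a potassium-chloride cotransporter, averaged 3215 ± 106 normalized counts in co-culture, 4160.1 ± 368 with TGF-β and 5555 ± 445 in monoculture, and fell, with a log2 change of -0.78 ± 0.09 (adjusted p = 1.15e-05). Slc12a5, its neuronal relative, was low, with 20.8, 37.5 and 35.9 normalized counts in co-culture against 66.6, 85.2 and 138 in monoculture, and its change of -1.34 ± 0.38 (adjusted p = 0.0149) in co-culture was no longer called without monoculture 3 or co-culture 1 (adjusted p up to 0.0738).

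**Figure D3:**
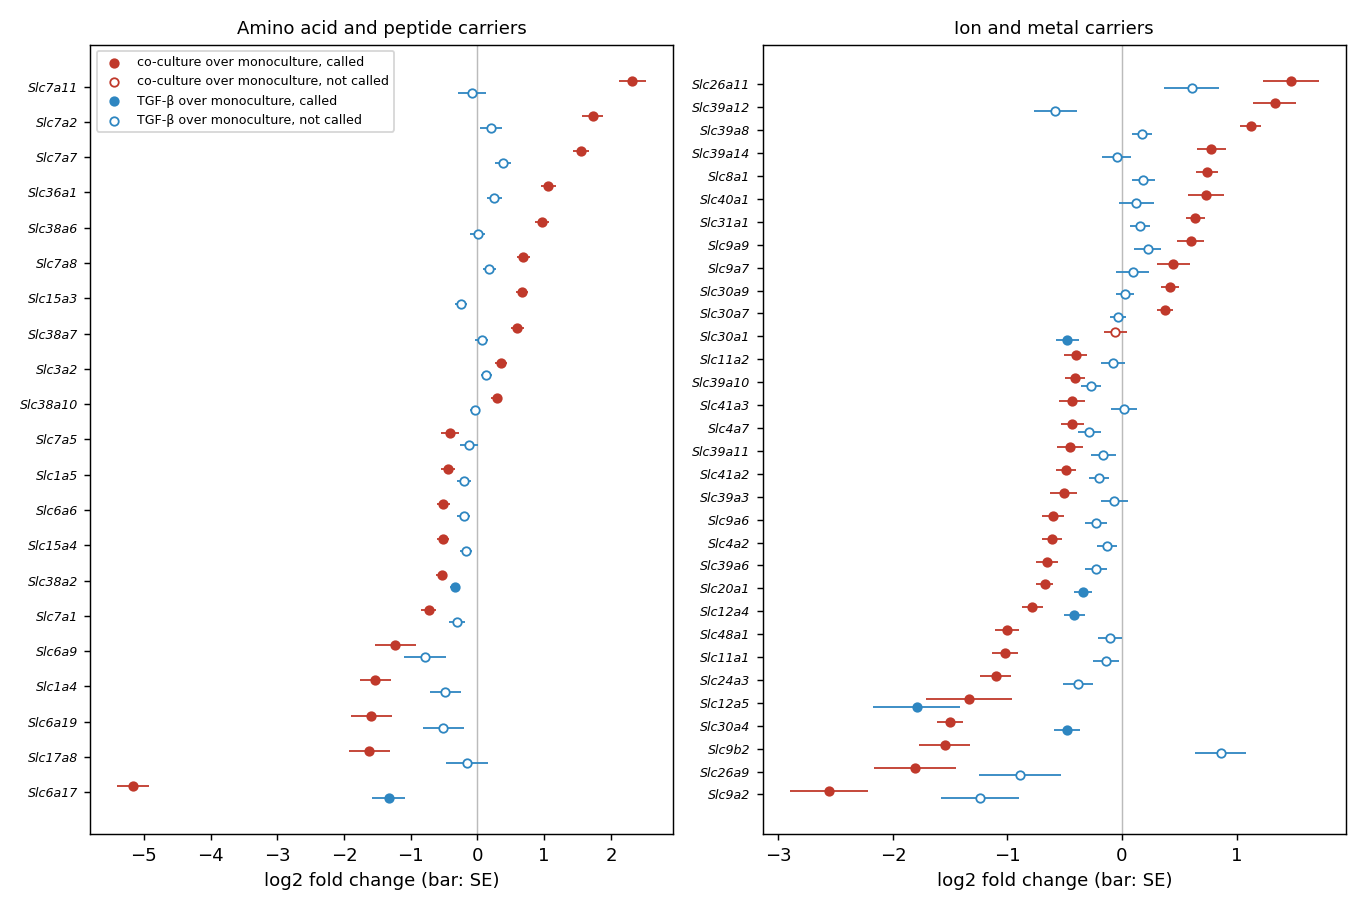
Log2 change ± standard error of the called carriers of amino acids and of ions and metals, for co-culture over monoculture and TGF-β over monoculture. Slc7a11 is at 2.32 in co-culture and at -0.08 with TGF-β, and Slc9b2 is at -1.55 in co-culture and at 0.86 with TGF-β.

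Among nucleoside carriers, Slc29a3, the equilibrative carrier of lysosomes, had 7341, 7215 and 7076 normalized counts in co-culture, 3609.6, 3048 and 3588 with TGF-β and 3507, 3453 and 3203 in monoculture. Co-culture was above all other libraries, and the log2 change was 1.09 ± 0.09 (adjusted p = 2.54e-07) over monoculture and 0.01 ± 0.09 (adjusted p = 0.980) for TGF-β. Slc28a2, the sodium-coupled concentrative importer of purine nucleosides, had 666, 685 and 587 normalized counts in co-culture, 1678, 1617 and 1761 with TGF-β and 2622, 2719 and 2979 in monoculture. The 3 groups did not overlap, with log2 changes of -2.09 ± 0.10 (adjusted p = 2.54e-09) in co-culture and -0.71 ± 0.10 (adjusted p = 0.00164) with TGF-β. The surface carriers Slc29a1 and Slc29a2 were called in no comparison. Slc29a1 had 4635, 4602 and 3727 normalized counts in co-culture, 4998, 5179 and 5165 with TGF-β and 4618, 4617 and 4050.3 in monoculture. Slc29a2 averaged 121 ± 17.5 normalized counts in co-culture, 106 ± 22.5 with TGF-β and 173 ± 51.4 in monoculture (SD, n = 3 each).

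Among carriers of organic anions, Slc16a6, a family member shown in zebrafish to export ketone bodies, had 8544, 8519 and 8171 normalized counts in co-culture, 3273, 3437 and 3288 with TGF-β and 2841, 3681 and 2657 in monoculture. The log2 change was 1.47 ± 0.11 (adjusted p = 1.07e-07) in co-culture, with the TGF-β and monoculture libraries overlapping. Slc16a10, a carrier of aromatic amino acids placed here by its family, had 5487, 5535 and 5553 normalized counts in co-culture, 11325, 10732 and 11367 with TGF-β and 15459, 14583 and 13108 in monoculture, a log2 change of -1.38 ± 0.08 (adjusted p = 1.16e-08). The lactate exporter Slc16a3 fell, with a log2 change of -0.54 ± 0.15 (adjusted p = 0.0178) in co-culture, with overlapping groups, and its call was lost without monoculture 1, monoculture 2, co-culture 1 or co-culture 2 (adjusted p up to 0.0721). Slc16a1, the lactate and pyruvate carrier MCT1, was called in no comparison, with 2648 ± 196 normalized counts in co-culture, 2285 ± 278 with TGF-β and 2483 ± 304 in monoculture (SD, n = 3 each).

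Sugar carriers other than the 2 left out changed in both directions. Slc37a2, a sugar phosphate exchanger of the endoplasmic reticulum abundant in macrophages, averaged 15363 ± 1894 normalized counts in co-culture, 23403 ± 1189 with TGF-β and 29647 ± 1892 in monoculture (SD, n = 3 each). It fell, with a log2 change of -0.95 ± 0.10 (adjusted p = 3.22e-06). Slc45a4 rose, with 8919 ± 169 normalized counts in co-culture against 5356 ± 339 in monoculture and a log2 change of 0.74 ± 0.07 (adjusted p = 3.53e-06). Slc2a6, a lysosomal hexose carrier, had 1349, 931 and 953 normalized counts in co-culture, 1525, 1549 and 1679 with TGF-β and 1192, 1155 and 1285 in monoculture. It was called only between co-culture and TGF-β, at -0.57 ± 0.13 (adjusted p = 0.00582). Slc2a9, which carries urate, fell, with a log2 change of -0.60 ± 0.11 (adjusted p = 7.65e-04) in co-culture, and Slc37a3, of the lysosome, rose by 0.59 ± 0.10 (adjusted p = 3.83e-04).

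Mitochondrial carriers were called at 13 of 43 (30.2%), close to the 30.8% of all tested genes. The aspartate-glutamate exchanger Slc25a13, part of the malate-aspartate shuttle, had 2275, 2394 and 2496 normalized counts in co-culture, 4728, 5144 and 4204 with TGF-β and 6828, 6485 and 5471 in monoculture. Its log2 change was -1.38 ± 0.10 (adjusted p = 1.27e-07), and its isoform Slc25a12 fell, with a log2 change of -0.47 ± 0.09 (adjusted p = 0.00145). Slc25a24, which exchanges ATP-magnesium for phosphate, fell, with a log2 change of -0.81 ± 0.09 (adjusted p = 5.60e-06), and Slc25a20, which carries acylcarnitines for fat oxidation, at -0.51 ± 0.10 (adjusted p = 0.00124). The ADP/ATP exchangers differed, since Slc25a5 rose by 0.37 ± 0.10 (adjusted p = 0.00987) and Slc25a4 fell, with a log2 change of -0.42 ± 0.09 (adjusted p = 0.00285). The ornithine carrier Slc25a15 rose by 0.56 ± 0.11 (adjusted p = 0.00141), and the pyrimidine nucleotide carriers Slc25a33 and Slc25a36 rose by 0.68 ± 0.16 and 0.54 ± 0.10.

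Carriers of vitamins, fatty acids and other molecules mostly fell where they were called. Slc23a2, the vitamin C importer, averaged 7473 ± 365 normalized counts in co-culture, 11447 ± 654 with TGF-β and 14644 ± 1094 in monoculture (SD, n = 3 each), and fell, with a log2 change of -0.97 ± 0.08 (adjusted p = 5.79e-07). The fatty acid carriers Slc27a1 and Slc27a4 fell, with log2 changes of -0.76 ± 0.10 and -0.34 ± 0.10, and the call of Slc27a4 was lost without monoculture 1, monoculture 2 or co-culture 1 (adjusted p up to 0.0703). The folate carrier Slc46a1 was the 1 that rose, by 0.43 ± 0.15 (adjusted p = 0.0483), and its call was lost without any 1 of 6 libraries, namely monoculture 1, monoculture 3, TGF-β 1 and each co-culture library (adjusted p up to 0.179). Without monoculture 3 its log2 change moved by over 1.5 times, to 0.27, and the call was also lost with edgeR, with no filter and with only the 6 libraries compared. The creatine carrier Slc6a8 fell, with a log2 change of -0.55 ± 0.09 (adjusted p = 4.05e-04), the ergothioneine carrier Slc22a4 at -1.15 ± 0.14 (adjusted p = 2.41e-05), and the vesicular monoamine carrier Slc18a1 at -2.28 ± 0.24 (adjusted p = 4.10e-06). Among the nucleotide sugar family, Slc35e4 averaged 1476 ± 240.4 normalized counts in co-culture, 2901 ± 150.1 with TGF-β and 4152 ± 371 in monoculture, and fell, with a log2 change of -1.49 ± 0.11 (adjusted p = 1.89e-07). Slc35g2 fell, with a log2 change of -2.19 ± 0.28 (adjusted p = 3.46e-05), and the GDP-fucose carrier Slc35c1 rose by 0.32 ± 0.09 (adjusted p = 0.0108), a call lost without co-culture 2 (adjusted p = 0.0602). Slc46a3, a lysosomal carrier, was called in no comparison, with 1138 ± 188 normalized counts in co-culture, 1053 ± 104 with TGF-β and 1064 ± 45.5 in monoculture.

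A few low genes rose in co-culture beside the fibroblast, glia and other cell type markers given above, and the part of other cells in them was not tested. Slc35f1 had 22.2, 22.7 and 33.2 normalized counts in co-culture, 0, 0 and 0 with TGF-β and 0, 0 and 0 in monoculture, so no fold is given. Slc22a17, a receptor for lipocalin 2, had 17.7, 37.5 and 26.6 normalized counts in co-culture, 17.3, 4.37 and 36.4 with TGF-β and 3.25, 1.15 and 2.32 in monoculture. Both Slc35f1 and Slc22a17 passed the level filter only with their co-culture libraries. Slc16a9 had 75.5, 78.1 and 77.1 normalized counts in co-culture, 24.0, 52.4 and 31.8 with TGF-β and 9.74, 17.3 and 17.0 in monoculture, and Slc22a23 had 109, 76.6 and 75.1 normalized counts in co-culture, 11.3, 37.1 and 27.3 with TGF-β and 14.6, 46.0 and 24.8 in monoculture. The call of Slc22a23 was lost without co-culture 1 (adjusted p = 0.0553). The scaffold Slc9a3r2, which is no carrier, had 51.6, 49.2 and 49.8 in co-culture, 12.8, 0 and 15.9 with TGF-β and 9.74, 3.45 and 14.7 in monoculture. These 5 genes had means of under 100 normalized counts in each group.

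TGF-β alone lowered some carriers and raised none at the threshold. Against monoculture 0 of the 223 genes rose and 13 fell, against 2.52% of all tested genes called, 1.13% higher and 1.39% lower. Among genes with a mean of at least 50, 12 of 187 fell, against 3.17% called. Groups did not overlap for 56 of the 223, against 16.9% of all tested genes. The 13 were the amino acid carriers Slc38a2 and Slc6a17, the ion and metal carriers Slc12a4, Slc12a5, Slc20a1, Slc30a1 and Slc30a4, and Slc25a13, Slc28a2, Slc35e4, Slc16a10, Slc18a1 and Slc23a2. At an unadjusted p under 0.05, limma had 12 higher and 37 lower. On recovered reads edgeR called 0 higher and 12 lower (9 and 34 unadjusted), and DESeq2 called 2 higher, Slc9b2 and Slc7a7, and 16 lower (13 and 37 unadjusted). Of the 13, 12 also fell in co-culture, and the comparisons share their monoculture libraries. The same share over all tested genes was not counted, so this overlap cannot be read as particular to carriers.

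The changes with TGF-β were smaller than 2-fold for 10 of these 13. Slc12a5, Slc6a17 and Slc18a1 had log2 changes of -1.79 ± 0.38 (adjusted p = 0.0214), -1.33 ± 0.24 (adjusted p = 0.00870) and -1.31 ± 0.24 (adjusted p = 0.00835). Slc18a1 had 52.7, 34.4 and 34.6 normalized counts in co-culture, 97.7, 83.0 and 81.8 with TGF-β and 218, 237 and 242 in monoculture. Slc28a2 was next by size among the 13, at -0.71 ± 0.10. Slc35e4, Slc16a10, Slc23a2, Slc20a1, Slc12a4 and Slc38a2 fell, with log2 changes of -0.51 ± 0.11, -0.37 ± 0.08, -0.35 ± 0.08, -0.34 ± 0.08, -0.42 ± 0.09 and -0.33 ± 0.08. Only Slc28a2 and Slc18a1 kept their call without any 1 of the 9 libraries, and the count that fell ranged from 2 to 13. It was 2 without monoculture 2 or without TGF-β 1, 5 without monoculture 1 or TGF-β 2, and 8 without monoculture 3.

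Co-culture was also set against TGF-β, which tests whether the conditions differ. Of the 223 genes, 38 were higher and 49 lower in co-culture, against 25.3% of all tested genes called, 13.4% higher and 11.9% lower. Among genes with a mean of at least 50, 34 of 187 were higher and 45 lower, against 28.4% called, and groups did not overlap for 122 of the 223, against 41.0% of all tested genes. Among the 87 called, 77 were also called in co-culture against monoculture, with which this comparison shares its co-culture libraries. That overlap, too, was not counted over all tested genes and cannot be read as particular to carriers. Slc7a11, Slc39a12, Slc7a2, Slc16a6 and Slc29a3 were higher in co-culture than with TGF-β by log2 changes of 2.40 ± 0.21, 1.92 ± 0.19, 1.52 ± 0.16, 1.33 ± 0.11 and 1.08 ± 0.09. Slc6a17, Slc9b2, Slc28a2, Slc30a4, Slc16a10 and Slc25a13 were lower in co-culture, at -3.83 ± 0.24, -2.41 ± 0.22, -1.37 ± 0.10, -1.03 ± 0.11, -1.01 ± 0.08 and -0.97 ± 0.10. Slc11a1 and Slc48a1 were lower in co-culture as well, at -0.89 ± 0.11 and -0.90 ± 0.10. Of the 87 calls, 58 were kept without any 1 library, as were 85 of the 99 against monoculture and 2 of the 13 for TGF-β. Slc6a6 lost its call against TGF-β without 6 of the 9 libraries, among them every co-culture library, and Slc15a4 lost it without co-culture 3 (adjusted p = 0.0562).

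Summed over each class per kilobase of exon, levels can be compared between the groups within a class. The classes held 4 to 60 genes, so the sums of different classes are not comparable. The ions and metals class summed to 40062 ± 1096 in co-culture, 46910.1 ± 1333 with TGF-β and 50499 ± 3512 in monoculture (SD, n = 3 each). The class of vitamins, choline and lipids summed to 6265 ± 214 in co-culture, 8489 ± 510 with TGF-β and 9143 ± 479 in monoculture. Amino acids and peptides summed to 38738 ± 798 in co-culture, 34891 ± 1123 with TGF-β and 36669 ± 2349 in monoculture. Slc6a6 alone made up a large part of this sum, and its own level was lowest in co-culture. A sum can thus be carried by a few genes of high level and is not a shift of the whole class. Sugars, without the glucose carriers Slc2a1 and Slc2a3, summed to 6022 ± 234 in co-culture, 6915 ± 290 with TGF-β and 7773 ± 279 in monoculture. These sums were given no test.

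**Figure D4:**
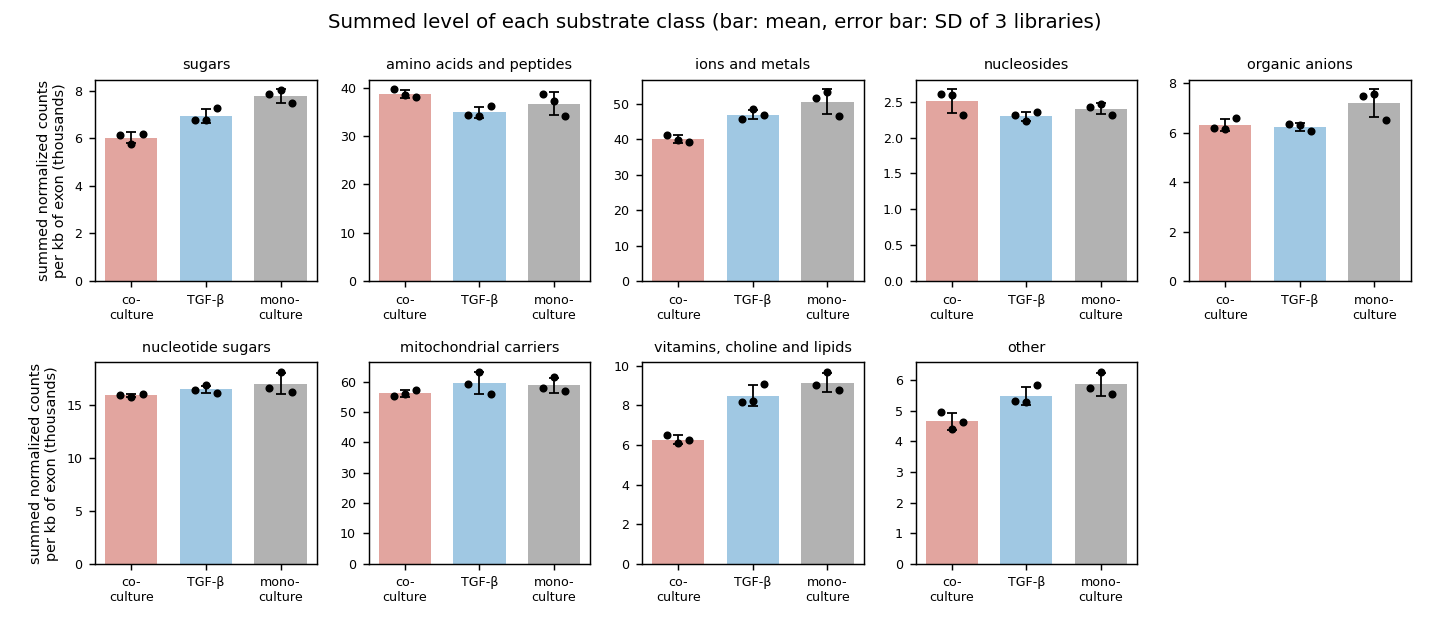
Summed normalized counts per kilobase of exon (axis in units of 1000) for each substrate class in each library (points), with the group mean (bar) and SD (error bar), n = 3 per group. Ions and metals sum to about 40062 in co-culture and 50499 in monoculture, and nucleosides sum to 2508 in co-culture and 2402 in monoculture.

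Transporters of solute carrier type that carry other names, 24 tested, had 5 higher and 4 lower in co-culture. Over all tested genes 15.9% were higher and 15.0% lower. Mfsd1, Pqlc2, Tmem165, Ucp2 and Slco2a1 rose, and Mfsd7b, Slco3a1, Mfsd12 and Ank fell. Slco2a1 passed the level filter only with its co-culture libraries, where it was highest. Of 23 tested partner and handling proteins, 4 rose and 9 fell, against the same 15.9% and 15.0% of all tested genes. Arg1 had 2890.0, 2776 and 17617 normalized counts in co-culture, 495, 496 and 261 with TGF-β and 403, 455 and 336 in monoculture, with co-culture 3 far above the other co-culture libraries. The arginases Arg1 and Arg2, which use arginine, rose by log2 changes of 3.69 ± 0.74 (adjusted p = 0.0101) and 1.13 ± 0.39 (adjusted p = 0.0412). Which carrier supplies that arginine was not tested. Arg2 was low, with 36.0, 14.1 and 51.8 normalized counts in co-culture, 0, 2.19 and 4.54 with TGF-β and 3.25, 12.7 and 11.6 in monoculture, and passed the level filter only with its co-culture libraries. Cp, the copper oxidase that helps ferroportin release iron, had 196, 182 and 112 normalized counts in co-culture, 33.1, 35.0 and 84.1 with TGF-β and 26.0, 23.0 and 35.6 in monoculture. It rose by 2.16 ± 0.34 (adjusted p = 2.17e-04), and Ireb2, which binds iron-responsive elements, by 0.34 ± 0.07 (adjusted p = 0.00195). The ferritin subunits Fth1 and Ftl1, which store iron, fell, with log2 changes of -0.63 ± 0.14 and -0.58 ± 0.12, as did the transferrin receptor Tfrc at -0.96 ± 0.13 and the iron reductase Steap3 at -1.23 ± 0.08. Asns, asparagine synthetase, fell, with a log2 change of -2.17 ± 0.12 in co-culture and -0.63 ± 0.12 with TGF-β (adjusted p = 0.0103). The glutathione enzymes Gclc and Gclm, downstream of cystine uptake, fell, with log2 changes of -0.65 ± 0.09 and -0.80 ± 0.16, and Txnrd1 and the lactate dehydrogenase Ldha fell, with log2 changes of -0.74 ± 0.09 and -0.57 ± 0.14.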

How the data were processed

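The deposited signal values are gene read counts that the authors divided by 1 size factor per library, as read from the numbers (100% of values whole multiples of 1 read, within 0.05). Per the submitters' processing notes, STAR 2.7.3, bcl2fastq 2.20, R 3.6.1 and DESeq2 1.24.0 were used with build mm10. Per the labels, the kit was SMART-Seq Stranded with 10 ng RNA as input. The counting program, its use of strand and the annotation are not given in the sources used here, so a gene and its opposite-strand partner cannot be told apart, for example Slc7a2, Slc7a7, Slc48a1, Slc16a6, Slc30a4, Slc37a2 and Slc11a2. The same holds for the 12 genes that share exons on the same strand with another gene.

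limma 3.58.1 (R 4.3.3; trend and robust) was fitted to log2 of the value plus 10 in 1 model of all 9 libraries, on 16328 genes with at least 10 in at least 3 libraries. Fold changes of low genes are thus understated. Fitting was tested on simulated data. Alternatives were edgeR 4.0.16, DESeq2 1.42.0, TMM scaling, a pseudocount of 1, other filters, 6 libraries, a replicate block and leaving out each library. Exon lengths and positions came from GENCODE M21, which held all 223 genes. Genes named were 25 set members, per comparison the 12 largest changes in each direction with a mean of at least 100 and groups apart, the 2 of smallest p per class, all nucleoside carriers, and genes at 0 in a group with at least 50 in another. Others were named after their values were seen. The members and lists were chosen with earlier results of these data known.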

Additional observations from a re-analysis of the deposited data

How the results depend on the processing

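Across the alternatives tried, counts in co-culture against monoculture and against TGF-β stayed within 1.5 times of 40 and 59, and of 38 and 49. With TGF-β against monoculture, 0 rose and 13 fell; DESeq2 had 2 that rose, and 5 fell with no filter on low values and 7 with only the 6 libraries compared. Leaving out 1 library gave 0 to 1 that rose and 2 to 13 that fell. The cause was not tested. DESeq2 gave no adjusted p to 22 of the 223 genes there. Of 2845 values of 56 named genes, 2728 kept their direction and side of the threshold, 107 lost and 10 gained the call, and none reversed.

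Whether replicate numbers pair libraries could not be decided. The deviations of same-numbered libraries from their group means correlated across genes at -0.15 to 0.37, and those of differently numbered libraries at -0.35 to 0.25. The highest value was that of monoculture 3 with TGF-β 3, but not every library correlated best with its own number. Deviations from a mean of 3 libraries are not independent of each other, so these values cannot exclude pairing by mouse. With the replicate block 99 genes were called for co-culture over monoculture (99 without the block), 85 for co-culture over TGF-β (87 without) and 9 for TGF-β over monoculture (13 without). Depth limits genes below about 10 normalized counts, where 1 read was worth up to 2.27.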
